A study of Mus musculus with 12 samples.

Results

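MicroRNA genes made up 296 of the 19938 named genes on these mouse liver arrays. A probe set, a group of short DNA probes read as one value, was taken as a microRNA gene where the array annotation gave it 1 gene symbol that begins with Mir and a digit, or with Mirlet7, and does not end in hg, the ending of host genes. These rules found 298 probe sets, and Mir713, the gene with several, was read from the one with the highest mean. All 296 genes are typed as microRNA in RefSeq. The arrays, 1 an animal, held liver total RNA of 12 C57BL/6J males in 4 groups of 3. The groups were first-generation (G1) knock-outs (KO) of mTERT, the reverse transcriptase of telomerase, their wild types (mTERT WT), first-generation KO of mTR, the telomerase RNA, and their wild types (mTR WT). Animals were matched for age, which the labels do not give, received no treatment, and formed sets of WT and KO littermates. A first-generation KO is an animal that lacks the gene but was bred from parents with telomerase, so it is a model of early loss rather than of many generations without the enzyme. Each title ends in a number from 1 to 3, read here as the set. Values are log2 intensities as deposited, so a difference of 1 is a doubling.

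A microRNA gene is copied into a long primary transcript, from which Drosha and Dgcr8 cut a hairpin in the nucleus. Dicer1 trims the hairpin to a short duplex, and 1 strand, the mature microRNA, guides an Argonaute protein to messages that pair with its seed, bases 2 to 8 from the 5′ end. In liver, miR-122 is known as the dominant microRNA of hepatocytes, the let-7 family as a brake on growth programmes, and the miR-34 family as a target of p53, which damaged telomeres activate. The array was labelled from total RNA with random primers, and the labels do not state whether its probes read primary transcript, hairpin or mature strand.

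The sequences below belong to the genes on which the results turn, with the seed in capitals, from RefSeq (GRCm38.p6). RefSeq held a mature sequence for 270 of the 296 genes. The first 3 are shown because a pair of genes, Mir135a-1 and Mir135a-2, shares the same 5p strand and differs in the 3p strand.
mmu-miR-135a-5p: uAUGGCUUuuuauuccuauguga
mmu-miR-135a-1-3p: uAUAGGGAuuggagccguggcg
mmu-miR-135a-2-3p: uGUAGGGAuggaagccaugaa
The next 3 share the seed AUUGCAC, and the differences of their genes by title number had both signs, with Mir32 alone called.
mmu-miR-32-5p: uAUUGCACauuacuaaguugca
mmu-miR-92b-3p: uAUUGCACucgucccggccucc
mmu-miR-25-3p: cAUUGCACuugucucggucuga
The let-7f strand belongs to the gene with the smallest p in the mTERT line, and the last 5 to genes that were lower or higher in arrays of title number 1.
mmu-let-7f-5p: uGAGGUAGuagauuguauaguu
mmu-miR-188-5p: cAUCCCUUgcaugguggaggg
mmu-miR-99a-5p: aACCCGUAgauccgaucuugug
mmu-miR-425-5p: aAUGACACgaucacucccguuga
mmu-miR-17-5p: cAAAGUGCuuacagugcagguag
mmu-miR-450a-5p: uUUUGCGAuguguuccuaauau
The miR-135a-5p strand of Mir135a-1 lies at chr9:106154140-106154162 on the plus strand, inside the noncoding gene D030055H07Rik on the same strand and opposite Glyctk. That of Mir135a-2 lies at chr10:92072141-92072163 on the minus strand, in no annotated same-strand gene. MiR-32-5p lies at chr4:56895272-56895293 on the minus strand within Tmem245, miR-188-5p at chrX:7248031-7248051 on the minus strand within Clcn5, and miR-425-5p at chr9:108568789-108568811 on the plus strand within Dalrd3.

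The arrays were checked before the microRNA genes were read. The mean of 8 hepatocyte genes lay between 12.81 and 12.97 on all 12 arrays. The Tert probe read 3.95, 4.07 and 4.15 in mTERT KO 1 to 3, and 4.13, 4.78 and 4.83 in mTERT WT 1 to 3. The array labelled mTERT WT 1 therefore lay within the KO values, and directions in the mTERT line are those of the labels. The Terc probe, which reads mTR, lay above background on 1 of 12 arrays and checks nothing about that deletion. On 5 arrays, numbers 1 of mTERT KO, mTERT WT and mTR KO and numbers 2 of both WT groups, 11 pancreas acinar genes averaged 6.98 to 11.24, while the other 7 arrays gave 3.91 to 4.09. On mTERT WT 1 and WT 3, 12 skeletal muscle genes averaged 6.76 and 6.43, with 3.84 to 4.41 on the 10 other arrays. Where a bulk value is lower, fewer cells of a type and less RNA per cell cannot be told apart.

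Most microRNA gene probes stayed below the upper end of the range of olfactory receptors, odour sensors of the nose that liver is not known to use. Background was set as each array's own 95th percentile over 1027 olfactory receptor genes, which averaged 4.34. Of the 296 microRNA genes, 53 (17.9%) were above background on all 12 arrays, 62 on some and 181 (61.1%) on none. By construction few olfactory receptor genes pass, and 16 (1.56%) did so on all 12 arrays. Among 18615 other named genes, 9115 (49.0%) did. The median over genes of the mean level was 3.95 for microRNA genes, 3.77 for olfactory receptors and 5.25 for 51 small nucleolar RNA genes, another class of short noncoding RNA. Only 9 microRNA genes had a mean of 6 or more, and 162 had a mean below 4. The number of microRNA genes above background ran from 74 in mTR WT 1 to 90 in mTR WT 3, and the 4 arrays of title number 1 gave 74 to 84 against 81 to 90 on the rest. The median level over the 296 genes was 3.92 in mTERT KO and 4.0 in mTR KO, and 3.94 in each WT group.

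**Figure D1:**
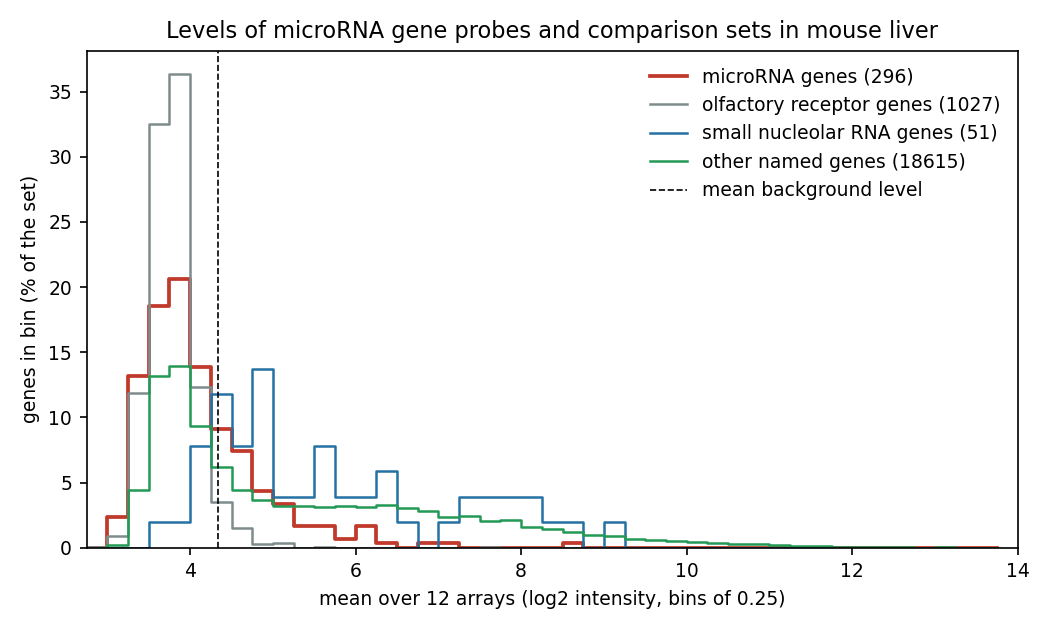
Share of each gene set (y axis, % of the set) by mean log2 intensity over 12 arrays (x axis, bins of 0.25) for 296 microRNA genes, 1027 olfactory receptor genes, 51 small nucleolar RNA genes and 18615 other named genes, with the mean background of 4.34 dashed. The microRNA genes peak below the dashed line, where the olfactory receptors lie, and have a thin tail above it.

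The 12 microRNA genes with the highest means were all above background on every array. Intensities of different probes do not measure relative amounts, so these genes are named as above background and not ranked. Which transcript gave the signal was not tested. Mir692-1 read from 8.14 to 8.87 on single arrays, Mir568 averaged 7.01, Mir505 6.80, Mir598 6.38 and Mir92b 6.24. Mir346, Mir341, Mir320 and Mir122 averaged 6.21, 6.20, 6.09 and 6.02, and Mir6516, Mir494 and Mir669b 5.81, 5.79 and 5.71. Mir341 lies in Rian and Mir494 in the same imprinted region of chromosome 12, Mir6516 lies in Snhg20, and the hairpin of miR-320 is known to be made without Drosha. The probe of Rian itself averaged 3.37 and exceeded background on no array. In the mTERT line Mir122 read 5.92, 6.20 and 6.20 on KO arrays 1 to 3 and 5.95, 5.54 and 6.16 on their WT. The mTR line gave 6.81, 5.40 and 5.95 for KO, then 6.36, 5.80 and 5.91 for WT. All 12 values of this hepatocyte microRNA exceeded background, with the widest spread in mTR KO.

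Other microRNAs known from liver were mostly not detected. Of 9 with a probe set of 1 symbol, Mir122 and Mir194-2 (mean 5.06) exceeded background on all 12 arrays and Mir194-1 on 11. Mir192, which shares a transcript with Mir194-2, read 3.31 to 3.63, and Mir148a, Mir33, Mir378a, Mir101b and Mir30a exceeded background on none. Mir34a, Mir34b and Mir34c, the family that p53 induces, were below background on all 12 arrays, with Mir34a between 3.49 and 4.15. The let-7 genes with a probe set of 1 symbol gave 1 of 9 above background on every array, Mirlet7f-1, and 6 of 9 on none. Probe sets with several symbols lie outside these counts. Those of Mirlet7c-2 (mean 5.06) and Mirlet7b (4.77), both with Lncppara, and of Mir22 (5.66), with Mir22hg, exceeded background on all 12 arrays. That of Mir101a did so on none. Their values cannot separate the microRNA from the other gene. Of 11 genes of the Mir17 to Mir92 cluster and its relatives, which are known for promoting proliferation, 9 were below background on all arrays and none was above it on all. A share of values near background limits every comparison that follows, since a true change in an undetected transcript need not show.

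MicroRNA genes did not separate KO from WT in either line. Of the 296 genes, 157 reached a mean of 3.898, the 30th percentile over all probes, and were tested with limma. The genes nearest that limit were Mir127 at 3.906 and Mir129-2 at 3.907 inside, and Mir687 at 3.894 and Mir211 at 3.888 outside. No tested microRNA gene passed an adjusted p of 0.05 in either line, where 0% of the 20197 tested probes were called, and none reached an unadjusted p under 0.05. With the litter as a block, 4 of 157 (2.55%) did so for mTERT and 3 (1.91%) for mTR, against 5.13% and 4.21% of all probes, with smallest adjusted p values of 0.929 and 0.999. Without the block, at that unadjusted level the limma fit held 283 of all probes (1.4%) in the mTERT comparison and 195 (0.965%) in that of mTR. Both lines are compared with their own WT animals and share no arrays. The median difference of the 157 genes was 0.0045 in the mTERT line, with 81 above 0, against 0.0121 over all probes. In the mTR line the median was 0.0454 with 113 (72.0%) above 0, against −0.0103 and 45.9% over all probes. Olfactory receptors gave 0.0471 and 69.0% in that comparison, nearly the values of the microRNA genes. The 95% interval of the difference lay within 2-fold for 156 of 157 genes (mTERT) and 155 (mTR).

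Mirlet7f-1, 1 of the pair of genes for let-7f, had the smallest p in the mTERT line. Its KO arrays 1 to 3 gave 5.06, 5.46 and 5.30, and its WT arrays 4.74, 5.17 and 5.06. The groups overlapped, although KO exceeded WT in each of the 3 sets. The difference was 0.28 (SE 0.145, 95% interval −0.03 to 0.60), with an unadjusted limma p of 0.0751 and an adjusted p of 1.0. With the litter as a block the unadjusted p was 0.0105 and the adjusted p 0.929. The mTR arrays gave 5.39, 5.36 and 5.07 for KO, with 5.37, 5.58 and 5.38 for WT, a difference of −0.17 (SE 0.145). The difference between both KO effects was −0.45 (SE 0.205, unadjusted limma p 0.0485, adjusted p 1.0), and mTR WT exceeded mTERT WT by 0.45 (SE 0.145, unadjusted limma p 0.00922, adjusted p 1.0). The other gene of let-7f, Mirlet7f-2, differed by −0.07 (SE 0.17) and 0.13 (SE 0.17) in the 2 lines.

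In the mTR line the smallest p belonged to Mir129-2, with KO values of 3.97, 3.97 and 4.09 and WT values of 3.83, 3.92 and 3.70, all below background. Its groups did not overlap, and the difference was 0.19 (SE 0.0928, unadjusted limma p 0.0611, adjusted p 1.0). Mir6516, made from the small nucleolar RNA host transcript Snhg20, had KO values of 6.00, 5.59 and 5.25 beside WT values of 6.12, 5.95 and 5.82. Each KO lay below the WT of its set, by an average of 0.35 on the log2 scale, while the groups overlapped. Its unadjusted limma p was 0.0693, or 0.00562 with the litter as a block, with adjusted p values of 1.0 and 0.999. The largest difference in that line was that of Mir505, with 6.46, 6.54 and 6.31 on KO arrays and 7.43, 6.80 and 6.31 on WT arrays. Both groups met at 6.31, and its difference of −0.41 (SE 0.349) became −0.12 without mTR WT 1 and −0.68 without mTR WT 3.

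The remaining genes with small p in the mTERT line were Mir128-1 (0.19, SE 0.109), Mir219a-1 (0.13, SE 0.0907) and Mir615 (0.15, SE 0.13) with KO above WT, and Mir365-1 (−0.21, SE 0.117), Mir450-1 (−0.22, SE 0.144), Mir217 (−0.20, SE 0.138) and Mir423 (−0.16, SE 0.109) with KO below. Those of the mTR line were Mir200c (0.16, SE 0.0838) and Mir148b (−0.14, SE 0.116). None of these differences exceeded its error enough to pass the test.

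Values of KO and WT that did not overlap were no commoner among microRNA genes than among probes at large. In the mTERT line this held for 1 of 157 tested genes (0.637%), against 4.33% of all probes, and in the mTR line for 7 (4.46%), against 4.48%. Among the genes above background on every array, Mir30d, Mir328 and Mir667 were higher in all 3 mTR KO arrays than in all 3 mTR WT arrays. Mir667 had KO values of 5.60, 5.69 and 5.66 and WT values of 5.58, 5.51 and 5.30, a difference of 0.19 (SE 0.105, unadjusted limma p 0.102, adjusted p 1.0). These 3 were chosen after their values were seen. None of them separated so in the mTERT line, where their differences were 0.01 for Mir30d (SE 0.144), 0.05 for Mir328 (SE 0.139) and 0.02 for Mir667 (SE 0.105).

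No named family gave a call by genotype. Mir34c, the family member that passed the filter, differed by −0.15 (SE 0.112) for mTERT and by 0.20 (SE 0.112) for mTR, and the difference of the 2 effects, 0.35 (SE 0.158), had an unadjusted limma p of 0.0474 and an adjusted p of 1.0. Its 12 values lay between 3.76 and 4.26, none of them above background. Neither line gave a call among the 5 let-7 genes, 5 genes of the Mir17 to Mir92 cluster and relatives, 3 liver, 4 muscle and 2 pancreas microRNA genes that were tested. Mir122 differed by 0.23 (SE 0.299, 95% interval −0.43 to 0.88) for mTERT and by 0.03 (SE 0.299, 95% interval −0.62 to 0.69) for mTR. Over all 4 groups at once the limma F test called no microRNA gene and 0% of probes, with a smallest unadjusted p of 0.057 among the 157 genes and none under 0.05. Between both WT groups 1 gene, Mirlet7f-1, had an unadjusted p under 0.05 and none was called.

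**Figure D2:**
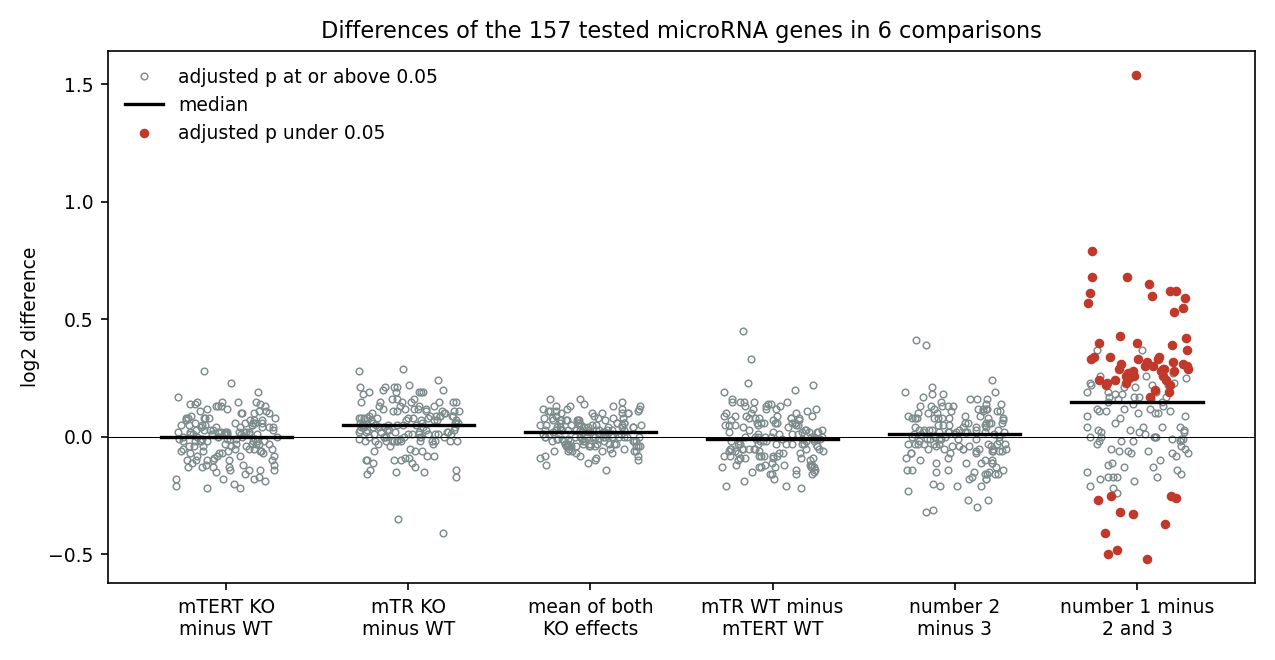
Log2 difference (y axis) of each of the 157 tested microRNA genes in 6 comparisons (x axis), with filled red points for a limma adjusted p under 0.05 and black bars for medians. The 5 comparisons between genotypes or between numbers 2 and 3 hold no filled point, while arrays of title number 1 against the rest hold 65, up to 1.54 for Mir135a-1.

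The number in the sample title parted the microRNA genes where the genotype did not. With the group in the model, 65 of 157 tested genes (41.4%) differed between the 4 arrays of number 1 and the 8 others by limma at an adjusted p of 0.05, and 38.2% of all probes did. The share called was therefore near that of probes at large, but the direction was not the same. Higher calls numbered 54 (34.4%) among microRNA genes against 17.1% of probes, and lower calls 11 (7.01%) against 21.1%. Olfactory receptors gave a like split, with 114 of 310 tested genes higher (36.8%) and 4 lower. Small nucleolar RNA genes went further, with 45 of 49 higher and none lower, and a median difference of 1.14 against 0.148 for microRNA genes, 0.168 for olfactory receptors and −0.0233 for all probes. Over all 296 microRNA genes, tested or not, 212 differences were above 0. The shift was present in each group: the median over 296 genes was 0.09 and 0.12 (KO and WT) for mTERT and 0.12 and 0.08 for mTR, and 64 of the 65 called genes had the same sign in all 4 groups, Mir542 being the exception.

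The split depends on what is taken as unmoved. The median of olfactory receptor genes was 0.15 higher on arrays of number 1, and when each array was centred on that median, a setting chosen after seeing the data, 52 microRNA genes were called, 19 higher and 33 lower, against 7.63% and 43.9% of all probes. Of these 52, 30 were among the 65. The 10 genes a direction with the smallest p as deposited were among these 30 and kept their direction. Mir135a-2 (0.17, limma adjusted p 0.146), Mir34c (0.02, limma adjusted p 0.833), Mir93 (0.10, limma adjusted p 0.182), Mir1a-1 (0.09, limma adjusted p 0.279), Mir450-1 (0.08, limma adjusted p 0.439) and Mir542 (0.12, limma adjusted p 0.223) were no longer called. Among the 53 genes above background on every array, 19 were higher and 3 lower as deposited (41.5% called, 35.8% higher), against 44.3% called and 17.4% higher of the 9115 other named genes above background throughout. Of the 53, 13 had values on number 1 that did not overlap the rest, 12 of them higher. Over all tested microRNA genes 43 of 157 did not overlap, against 23% of probes.

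Mir135a-1 stood furthest apart. It read 6.71, 6.22, 6.01 and 6.06 on the number 1 arrays (mTERT KO and WT, then mTR KO and WT), and from 4.50 to 4.88 (median 4.74) on the 8 others. No value of one kind came within 1 log2 unit of the other kind, and all 12 exceeded background. The difference was 1.54 (SE 0.123, 95% interval 1.27 to 1.81, limma adjusted p 3.99e-06), with 2.11, 1.49, 1.19 and 1.37 in the 4 groups. Its partner Mir135a-2, which yields the same 5p strand, read 4.06 to 4.26 and 3.71 to 4.08, a difference of 0.32 (SE 0.0866, limma adjusted p 0.0124), and exceeded background on no array. MiR-135a is known for targeting the Wnt regulator Apc.

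**Figure D3:**
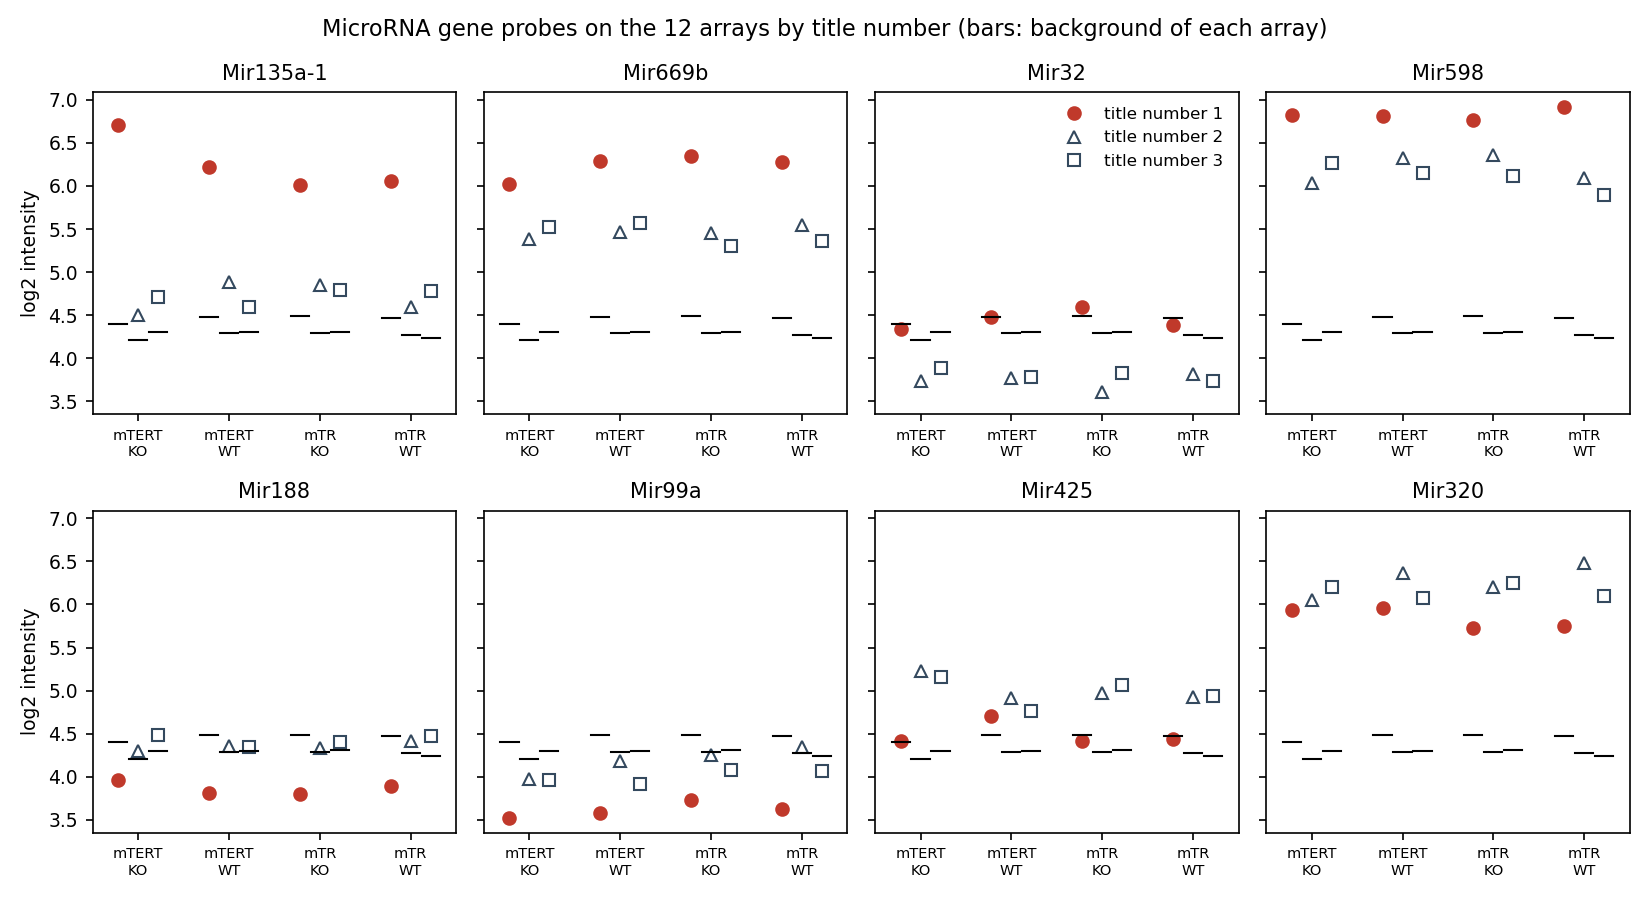
Log2 intensity (y axis) of 8 microRNA genes on the 12 arrays by group (x axis), with filled circles for title number 1, triangles for 2, squares for 3 and short bars for each array's background. Filled circles lie above all other points for Mir135a-1, Mir669b, Mir32 and Mir598 and below them for Mir188, Mir99a, Mir425 and Mir320, while Mir32 exceeds background on 2 arrays and Mir99a on 1.

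Mir669b, of a microRNA family known from rodents, read 6.02 to 6.35 on number 1 and 5.30 to 5.57 (median 5.46) on the rest, without overlap, a difference of 0.79 (SE 0.0756, limma adjusted p 1.43e-05). Mir598 read 6.77 to 6.92 and 5.90 to 6.36 (median 6.13), a difference of 0.68 (SE 0.0863, limma adjusted p 0.000109). These and Mir135a-1 were the genes above background on all arrays among the 10 with the smallest p in the upward direction. The other 7 reached background on some arrays or on none. Of the 157 tested genes, 12 passed the filter only through the number 1 arrays, their mean on the rest being below it, and a call among them could only be higher. They held 10 of the 54 higher calls, Mir32, Mir17, Mir206, Mir135a-2 and Mir34c among them, and 5 genes that passed only through numbers 2 and 3 held 2 of the 11 lower calls, Mir188 and Mir99a. The 140 genes at or above the filter on both sides held 44 higher and 9 lower calls. Mir32 read 4.34 to 4.60 and 3.61 to 3.89, and exceeded background on 2 arrays, both of number 1 (difference 0.68, SE 0.072). Mir450-2 (0.60, SE 0.0691), Mir672 (0.62, SE 0.0758), Mir210 (0.57, SE 0.076), which low oxygen is known to induce, and Mir9-1 (0.61, SE 0.0849), known from neurons, exceeded background on 3 to 10 arrays. Mir17 (0.55, SE 0.0728) and Mir206 (0.65, SE 0.0849) exceeded it on none.

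Of the 11 lower genes, Mir320, Mir692-1 and Mir666 were above background throughout. Mir320 read 5.73 to 5.96 on number 1 and 6.05 to 6.48 (median 6.20) on the rest, without overlap, a difference of −0.37 (SE 0.0912, limma adjusted p 0.00738). Mir692-1 read 8.14 to 8.44 and 8.41 to 8.87, which overlap, a difference of −0.33 (SE 0.0809, limma adjusted p 0.0067). Mir425 read 4.42 to 4.70 and 4.76 to 5.23 (−0.50, SE 0.0879, limma adjusted p 0.00104), with single groups from −0.77 in mTERT KO to −0.13 in mTERT WT. Mir188 fell by 0.52 (SE 0.0593), from 4.30 to 4.49 on the rest to 3.80 to 3.96, and Mir99a, of a family known to target mTOR, fell by 0.48 (SE 0.0755). Mir296, Mir181c, Mir218-2, Mir23a and Mir212 fell by 0.41, 0.32, 0.27, 0.25 and 0.26 on the log2 scale. Mir23a was no longer called without mTR KO 1 (−0.18, limma adjusted p 0.078), nor Mir212 without mTERT KO 1 (−0.18, limma adjusted p 0.126) or mTERT WT 1 (−0.25, limma adjusted p 0.0755).

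Of the 4 arrays of number 1, 3 also held pancreas transcripts, as did 2 of the 8 others, and 1 of each kind held muscle transcripts. On number 1 the mean of the 11 acinar genes ran from 3.99 to 11.24 and that of the 12 muscle genes from 3.84 to 6.76. On the rest they ran from 3.91 to 8.95 and from 3.86 to 6.43. Without the 5 arrays with pancreas transcripts, number 1 was left with mTR WT 1 alone, whose spread was assumed to be that of the other groups. Then 2 microRNA genes were called, against 1.3% of probes, Mir135a-1 at 1.28 (SE 0.177, limma adjusted p 0.0139) and Mir669b at 0.92 (SE 0.174, limma adjusted p 0.0448). Mir598 differed by 1.02 there (limma adjusted p 0.0513), Mir9-1 by 0.87, Mir210 by 0.65, Mir188 by −0.58 and Mir425 by −0.49, while Mir218-2 and Mir212 came to −0.08 each. Mir216a, Mir216b and Mir217, known from pancreas, exceeded background on no array, and in mTR KO 1, with the most pancreas transcript, they read 3.86, 3.58 and 4.23 against a background of 4.49. Mir375, of pancreatic islets, read 4.18 there and 3.92 to 4.62 elsewhere.

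Of 7 muscle microRNA genes on the array, 4 were tested by title number and 3 called higher, each above 0 in all 4 groups, while 34.4% of tested microRNA genes, 36.8% of olfactory receptors and 17.1% of probes were. These genes read near background, where olfactory receptors were also higher on number 1, and Mir1a-1 lost its call with arrays centred on those. Mir1a-2 read 4.42, 4.34, 4.29 and 4.31 on the number 1 arrays and 3.79 to 4.25 on the rest (0.42, SE 0.0805, limma adjusted p 0.00163), with its highest remaining value in mTERT WT 3, an array with muscle transcripts. Mir1a-1 differed by 0.24 (SE 0.0619) and Mir206 by 0.65, and Mir206 read 3.75 in mTERT WT 3. Mir206 passed the filter only through the number 1 arrays, so its call could only be higher. Mir133a-1 and Mir133a-2 each differed by −0.02. Beyond Mir1a-2, which passed on 1 array, none of the 7 exceeded background.

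Genes with the same mature strand more often than not lay on the same side of 0 by title number. Of 22 sets with one mature strand, 11 had all genes above 0, 4 had all below and 7 had both signs, and most microRNA genes were above 0 in any case. Sizes differed within sets. Mir680-1, Mir680-2 and Mir680-3 gave −0.27, 0.39 and −0.14, of which Mir680-2 was called higher (limma adjusted p 0.00119). Mirlet7f-1 and Mirlet7f-2 gave −0.16 and 0.25. Mir16-1 and Mir16-2 (0.22 and 0.33) and Mir7-1 and Mir7-2 (0.18 and 0.16) were alike in size. RefSeq gave 390 distinct seeds, of which 67 were shared by 2 or more genes, 135 in all. In the group with seed AUUGCAC, Mir32 differed by 0.68 and Mir25 by 0.21 (SE 0.0876, limma adjusted p 0.076), while Mir92b came to −0.17 (SE 0.117). In the group with seed AAAGUGC, Mir17 differed by 0.55 and Mir93 by 0.26, both called higher, and the least of the 6 genes by −0.07. Mir9-1 and Mir9-3, with the same mature strand, gave 0.61 and −0.04 (SE 0.109), and Mir450-2 and Mir450-1 0.60 and 0.23. Of the p53 family, Mir34c was called higher as deposited (0.17, SE 0.0624, limma adjusted p 0.0472) and not after centring on olfactory receptors. None of the 5 tested let-7 genes was called, with values from −0.21 for Mirlet7i (SE 0.0771) to 0.25 for Mirlet7f-2 (SE 0.1). Each of these genes has its own probe set and hairpin.

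The base composition of the hairpin went with the direction. RefSeq held a hairpin for 258 of 296 genes (87.2%), 61 to 112 bases long. Split into 3 parts by G and C, the lowest part (28.4% to 43.9%) had 82 of 87 genes above 0 by title number, with a median of 0.19, and 26 of 49 tested genes were called higher and none lower. In the middle part the median was 0.11, with 66 of 85 above 0, 10 of 31 called higher and none lower. In the highest part (52.1% to 69.2%) it was −0.02, with 42 of 86 above 0, and 9 of 52 were called higher and 8 lower. Some called genes passed the filter only through number 1, so their call could only be higher. These were Mir135a-2, Mir15b, Mir206, Mir302d, Mir32 and Mir34c in the lowest part, Mir17 and Mir221 in the middle and Mir697 in the highest. Mir188 and Mir99a, in the highest part, could only be lower. The medians and counts above 0 cover all 258 genes, tested or not. The medians of the lowest part were 0.16 to 0.23 in the single groups and those of the highest 0.00 to 0.03. Across the 258 genes Spearman's rho between G and C content and the difference was −0.49, a description over genes read on the same 12 arrays. G and C content showed a rho of 0.06 with the level. Mir135a-1, with the largest difference, lay in the middle part. In the 37 of these genes above background on all arrays, the medians were 0.26, −0.01 and 0.09 from low to high.

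**Figure D4:**
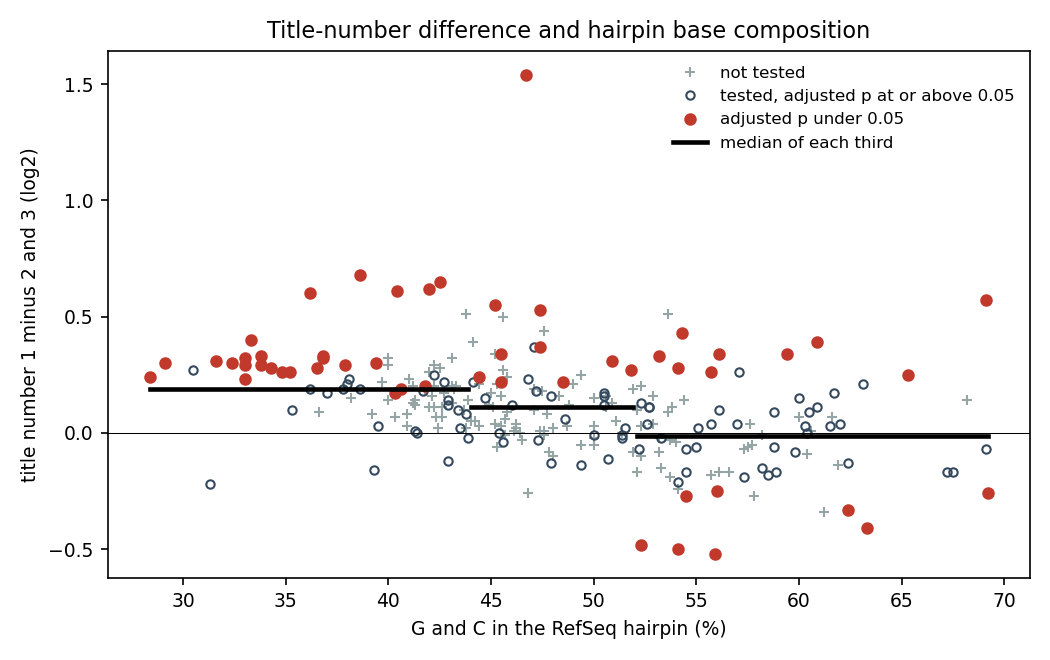
Title-number difference (y axis, log2, number 1 minus 2 and 3) against the share of G and C in the RefSeq hairpin (x axis, %) for 258 microRNA genes, with filled points called by limma, open points tested and crosses not tested. Bars mark the medians of 0.19, 0.11 and −0.02 in the low, middle and high parts, and lower calls appear in the high part alone among genes with a hairpin sequence.

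Host genes above background and the microRNA genes within them lay on the same side of 0 by title number in 18 of 47 pairs. Whether this depends on the host was not tested, since 70.1% of tested microRNA genes were above 0 against 46% of all probes. A same-strand host was annotated for 124 microRNA genes, and 91 pairs had a probe for the host, 47 of them with a host above background on every array. In 7 of these 47 the microRNA gene was also above background on every array, and in 29 on none. The 47 pairs hold 38 distinct hosts, of which 14 were called by title number with limma, 4 higher and 10 lower, while 38.2% of all probes were called. Dalrd3 enters with 2 microRNA genes, so 15 pairs had a called host, 5 of them higher, and the microRNA gene lay on the same side of 0 as the host in 1 of these 5 pairs and in 1 of the 10 with a lower host, on values rounded to 2 decimals, which put Mir361 on neither side. Dalrd3, the host of Mir425 and Mir191, was higher by 0.25 (SE 0.0652, limma adjusted p 0.0103), while Mir425 fell by 0.50 and Mir191, below background, by 0.24. Pank1, the host of Mir107, fell by 0.47 (SE 0.0708, limma adjusted p 0.000372), and Mir107 came to 0.37 (SE 0.151, limma adjusted p 0.0732). Chm fell by 0.83 (SE 0.0619, limma adjusted p 2.4e-06) while Mir361 within it came to −0.00 (SE 0.0639). Across the 47 pairs, several of which share a host, Spearman's rho between both differences was −0.21, as a description.

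**Figure D5:**
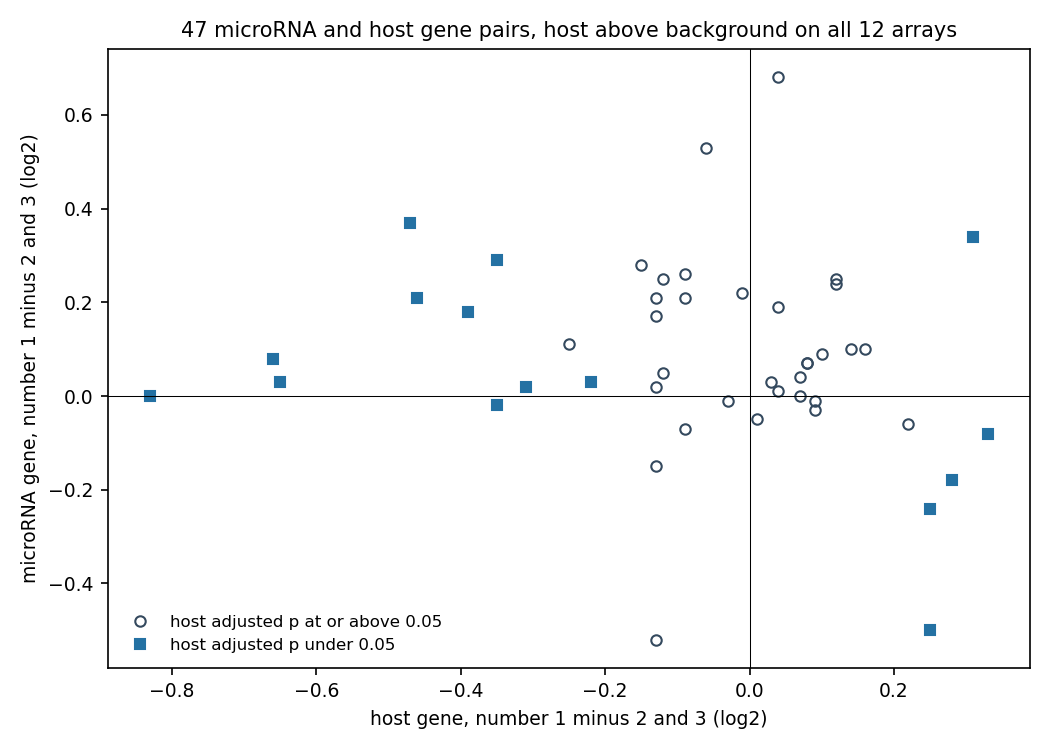
Title-number difference of the microRNA gene (y axis, log2) against that of its host gene (x axis, log2) in 47 pairs with a host above background on all 12 arrays, with squares for hosts called by limma. The 10 pairs with a lower host lie left of 0 with 1 microRNA gene below 0, and the 5 pairs with a higher host, 2 of them with Dalrd3, lie right of 0 with 1 microRNA gene above 0.

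Many of the microRNA genes lie next to each other. With genes chained at distances of up to 10 kb, 147 of 296 fell into 47 clusters. The largest, 30 genes on chromosome 12 in the imprinted region that holds Mir494 and Mir667, had 6 genes above background on all arrays and 21 on none. By title number 27 of its 30 genes were above 0, where 212 of all 296 microRNA genes were. Of 12 tested, 5 were called higher and 1 lower. Among all tested microRNA genes 34.4% were higher and 7.01% lower, and among all probes 17.1% and 21.1%. The median differences of these 30 genes were −0.05 for mTERT and 0.05 for mTR.

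Numbers 2 and 3 gave no call, in microRNA genes or among all probes (0%). At an unadjusted limma p under 0.05 there were 12 of 157 microRNA genes (7.64%), against 6.96% of probes. The smallest p was that of Mir484, which read 4.85, 4.65, 4.45 and 4.67 on number 2 and 4.92, 5.02, 5.0 and 4.89 on number 3, without overlap (difference −0.30, SE 0.0816, unadjusted limma p 0.00329, adjusted p 0.699). Mir465 (−0.27) and Mir466 (−0.27) were lower and Mir455 (0.24), Mir99a (0.18) and Mir680-3 (0.41) higher on number 2, with the same adjusted p of 0.699 each.

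The genes that make and use microRNAs gave no call by genotype, and calls by title number at a share near that of other genes above background. Of 37 with a probe, 33 were above background on all arrays and 36 were tested. Neither KO comparison called any, nor held an unadjusted limma p under 0.05. By title number 3 of the 36 were higher and 12 lower, against the 17.1% and 21.1% of all probes. Of the 9115 other named genes above background throughout, 44.3% were called, 1583 higher and 2453 lower. Tut4, which adds uridines to let-7 precursors, read 6.26, 5.99, 6.17 and 6.34 on number 1 and 6.99 to 7.57 on the rest, without overlap (−1.11, SE 0.0976, limma adjusted p 7.83e-06). Drosha and Dgcr8, which cut the primary transcript, fell by 0.28 (SE 0.081) and 0.34 (SE 0.0877), and Dicer1 by 0.29 (SE 0.0699, limma adjusted p 0.00604). The exonuclease Xrn2 fell by 0.58 (SE 0.0697), and Tsn and Tsnax, which form a nuclease on passenger strands, fell by 0.54 and 0.44. Ago2, the slicing Argonaute, was higher by 0.29 (SE 0.0832), and Tnrc6c, its silencing partner, by 0.36 (SE 0.0808). Within a line, litter and any shared handling of equally numbered arrays cannot be told apart. What equally numbered arrays of both lines have in common was not tested.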

How the data were processed

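Total RNA of 12 livers was labelled with random primers and hybridised to Affymetrix arrays, per the labels' protocols. Values were used as deposited by the authors, as intensities whose range fits a log2 scale. The base is not stated. The submitters' processing notes name GCOS 1.4, Expression Console and PLIER without role or order, and normalization and build are not given in the sources used here. Array medians lay between 4.37 and 4.43. Genes were named from the array's annotation table. The 30th percentile of probe means was the filter, and probes from there up were fitted with limma 3.58.1 (R 4.3.3) on 4 group means over 12 arrays, with title number added for its comparisons, two-sided, Benjamini-Hochberg over 20197 probes at 0.05. The method was tested on simulated data. Same-numbered KO and WT arrays, littermates per the labels, correlated in their deviations at 0.692, 0.135 and 0.623 (mTERT) and 0.458, 0.151 and 0.552 (mTR). Title number was therefore taken as a pairing in the fits with the litter as a block. The main fits between genotypes did not use the pairing, so differences between title numbers stayed in their error. KO 2 correlated more with WT 3 (0.416 and 0.464). Arrays are 1 per animal, and their number limits the precision. Named genes were the 12 highest, those with the smallest p in each comparison and direction, and fixed families. Members and lists were chosen with earlier results of these data known. Python 3.11.15 and pandas 2.3.3 made the summaries.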

Additional observations from a re-analysis of the deposited data

Results flagged for a closer look

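Probe sets to which the annotation gives several gene symbols, 1 of them a microRNA gene, were outside the 296 genes, and 32 of 61 (52.5%) exceeded background on all 12 arrays. Of the 61, 38 had distinct values. The 13 probe sets of the Mir669 family hold the same 12 values, and those of the Mir467a, Mir3084, Mir683 and Mir465 families repeat too. Of the distinct ones, 19 exceeded background throughout. Most of these carry the symbol of another gene, which the values cannot separate from the microRNA: a probe set of Mir692-3, Mir692-2 and Ftl1 averaged 11.70, one of Mir703 and Eef1a1 11.63, and one of Mir682 and Rpl37a 9.52. By title number, untested, that of Mir682 and Rpl37a differed by 1.15, that of Mir1291 and Snora34 by 1.47, and that of Mir22hg and Mir22 by −0.49.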

How the results depend on the processing

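The count of 65 microRNA genes by title number was 34 with a filter at the 50th percentile (33 of them among the 65), which tests fewer genes. It was 18 in the mTERT line alone and 33 in the mTR line alone, which hold fewer arrays. Without the 5 arrays with pancreas transcripts, chosen after seeing the data, the fit set 1 array against 1, so no count is given. Leaving out single arrays gave a count of 46 (without mTERT WT 1) to 70 (without mTERT WT 3). Over all probes the calls then ran from 5817 to 7666, against 7709 with all arrays. For the genes named by title number, 237 of 240 differences without 1 array and 201 of 228 under other settings kept direction and call, and the rest kept direction and lost the call. Those other settings include the fit without the 5 arrays. The count of 53 genes above background was 29 with the 99th percentile of olfactory receptors, 29 with their median plus 1 log2 unit, and 100 when 3 arrays sufficed. With the litter as a replicate block, the pairing changed no call between genotypes: each KO comparison had 0 microRNA genes called. Title number had 64, 1 fewer, with the litter as a random block, added after seeing the data, all among the 65. Comparisons of KO with WT, WT with WT, numbers 2 and 3, and all 4 groups called 0 microRNA genes without any single array. Over all probes, leaving out mTERT WT 2 gave 42 calls in the mTERT line, and leaving out mTERT WT 1 gave 1. Signal near background limits what 181 genes can show.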

Other observations

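Among the microRNA genes whose mean was too low to be tested, Mir378a, which lies in a metabolic regulator gene and is known from liver and muscle, had the largest title-number difference. It read 4.16, 4.32, 4.47 and 4.43 on the number 1 arrays and 3.44 to 3.74 on the rest, without overlap, and exceeded background on none. Mir215, Mir301b and Mir300 differed by 0.51, 0.51 and 0.50 (SE 0.0701, 0.0864 and 0.0644) and were below background on all 12 arrays too. All 4 were picked with their values in view.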
